A study of Mus musculus with 8 samples.

Results

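Galectins and Ms4a6 proteins were followed at the RNA level in mouse blood stem and progenitor cells with and without Asxl2, a chromatin protein that partners the deubiquitinase Bap1. The set held 8 of the 47311 genes that the transcripts mapped to, namely the galectin genes Lgals1, Lgals3, Lgals4, Lgals8 and Lgals9 and the genes Ms4a6b, Ms4a6c and Ms4a6d. The other 6 genes were listed by family, but Lgals1 and Ms4a6c were chosen because their RNA was high in old knockout mice. Their values in every comparison that uses old mice are therefore a description with no test, and only the comparison of young mice tests them. The libraries hold polyadenylated RNA of LSK cells from 8 mice, the bone marrow cells that lack lineage markers and carry Sca1 and Kit. Old Asxl2 knockout (KO) mice and old wild-type (WT) mice were over 1 year of age, young KO mice and young WT mice were 8 to 12 weeks of age, and each of these 4 groups had 2 mice. The mice came from 4 litters with 1 KO and 1 WT animal each, and each group had 1 mouse in batch 1 and 1 in batch 2, which the labels place in different years. Strain, the design of the knockout allele and the cell type in which it acts are not given in the sources used here, and the RNA is that of a sorted population, so fewer cells of a type and less RNA per cell cannot be told apart.

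Galectins are small lectins that bind beta-galactoside sugars. They lack a signal peptide, act inside cells and, once released, cross-link sugar chains on surface glycoproteins. Galectin-1, the product of Lgals1, is a homodimer of a single sugar-binding domain. Galectin-3, the product of Lgals3, joins a sugar-binding domain to a flexible tail and is abundant in macrophages. Galectin-4, galectin-8 and galectin-9 carry a pair of different sugar-binding domains on a linker. The MS4A proteins are membrane proteins with several membrane-spanning segments whose best known members are CD20, encoded by Ms4a1, and the beta chain of the IgE receptor, encoded by Ms4a2. Ms4a6b, Ms4a6c and Ms4a6d belong to a group of mouse genes expressed in myeloid and lymphoid cells, and they lie in the Ms4a gene cluster on chromosome 19.

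Libraries held 45737972 to 80388500 estimated counts, and the 2 mice of a group differed far more than counting error allows, with a chi-square per degree of freedom of 85.4 to 265. Asxl2 RNA was 4.63 to 5.63 TPM (an abundance scaled for transcript length and library depth) in the 4 KO libraries and 23.0 to 30.8 TPM in the 4 WT libraries, so the libraries went with their genotype labels. All 9 LSK markers were detected in every library, with summed levels of 1474 to 2072 TPM in KO mice and 1923 to 3282 TPM in WT mice. Over both ages 4 of these 9 fell in KO mice, Kit and Mecom among them, and 2 rose, Ly6a among them, with a median log2 difference of -0.66, beside 0.10 for all genes. In the same comparison 8 of 10 erythroid markers and 6 of 10 mast cell, basophil and eosinophil markers fell, where 6.78% of all genes were called lower and 3.19% higher. With the trend in transcript length described with Lgals1 below as an offset, 2 LSK markers fell and 1 rose, with a median of -0.23, beside 0.13. Kit (-0.42, adjusted p = 0.13, edgeR), Mecom (-0.46, adjusted p = 0.11) and Ly6a (0.58, adjusted p = 0.056) were no longer called. With that offset 6 erythroid and 4 mast cell, basophil and eosinophil markers fell, where 609 of 25543 genes were called lower. Without the old litter of batch 1, 1 LSK marker fell and none rose, and 4 erythroid and 6 mast cell, basophil and eosinophil markers fell. The old litter of batch 1 stood apart, since its KO and WT libraries held 3.33 and 3.61 TPM of Xist RNA, against at most 0.0612 TPM in the other 6. The old WT library of that litter also had the lowest summed level of neutrophil markers, 12.4 TPM, against 70.0 to 1582 TPM in the other 7.

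The 8 genes covered a wide range of levels, shown by library in the plot of TPM by group. Lgals9 was the most abundant, with a mean of 611 TPM over the 8 libraries and the rank of 197 among all genes. Lgals8 followed with a mean of 107 TPM and Lgals1 with 85.1 TPM, but the ranges of these 2 genes overlapped, 56.2 to 160.4 TPM for Lgals8 and 26.5 to 172 TPM for Lgals1. Ms4a6b and Ms4a6c, with means of 34.3 and 29.6 TPM, overlapped as well, and so did Lgals4 and Lgals3 with means of 12.5 and 11.8 TPM. Ms4a6d was lowest at 1.44 TPM, and its libraries held 31 to 97.0 estimated counts, so that its values carry the largest counting error of the set. All 8 genes passed the filter on low counts. Of the other galectin genes and relatives, Lgalsl had a mean of 5.90 TPM, and Lgals2, Lgals7 and Lgals12 stayed below 1 TPM in every library. Grifin had 1.70 and 1.75 TPM in old KO mice and 0.434 and 0.979 TPM in old WT mice. In young mice it had 2.01 and 1.51 TPM with KO and 0.386 and 0.428 TPM with WT.

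**Figure D1:**
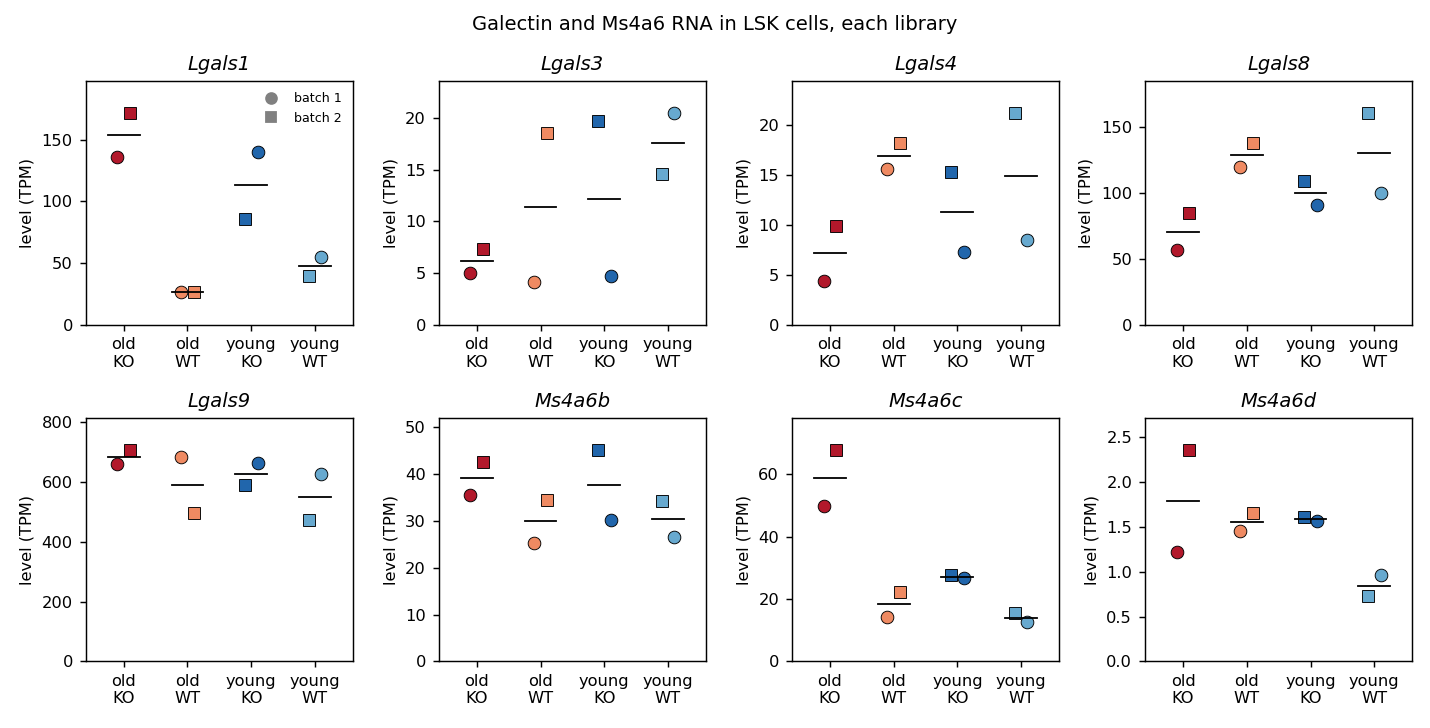
Level of each of the 8 genes in TPM (y axes, linear and starting at 0) in the 4 groups (x axes), with 1 point per library, circles for batch 1, squares for batch 2 and a bar at the mean of the 2 mice. Lgals1 and Ms4a6c sit higher in KO than in WT mice at both ages, while Lgals8 and Lgals4 have their lowest mean in old KO mice.

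Among the galectin genes of the set, Lgals1 showed the widest separation between genotypes. Its level was 136 and 172 TPM in old KO mice and 26.7 and 26.5 TPM in old WT mice. It was 85.9 and 140.2 TPM in young KO mice and 39.2 and 55.3 TPM in young WT mice. Every KO library lay above every WT library, the lowest KO value being 85.9 TPM and the highest WT value 55.3 TPM. The share of all genes that separate in this way was not counted. Within litters the KO to WT ratio of TPM was 5.08 and 6.49 in the old litters and 2.54 and 2.19 in the young litters. On the log2 scale of the count model the difference was 2.72 (SE 0.31) in old mice, a description of the values by which the gene was picked. The gene was picked for its level in old KO mice, and whether young mice served as the baseline of that choice is not given. In young mice the difference was 1.34 (SE 0.29), in a fit that shares its spread and batch term with the old libraries. This did not pass the threshold of 0.05 (adjusted p = 0.235, edgeR quasi-likelihood F test with Benjamini-Hochberg adjustment over 25543 genes), while the unadjusted p was 0.00067.

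The call in young mice depended on the processing. DESeq2 called Lgals1 higher in young KO mice (adjusted p = 0.00135), and edgeR did so without the filter on low counts (adjusted p = 5.9e-05), without the first young KO mouse (log2 difference 1.73, adjusted p = 0.0447) or without the second young WT mouse (1.59, adjusted p = 0.00595), within a range of 5.9e-05 to 0.568 over 16 alternatives, all with the same direction. Lgals1 has a single annotated transcript of 800 bases that shares no stretch of 31 bases with a transcript of another gene. It is short, and short transcripts gained weight in KO libraries: the slope of log2 TPM on log2 transcript length was -0.88 and -0.77 in old KO mice, -0.56 and -0.57 in old WT mice, -0.61 and -0.61 in young KO mice, and -0.27 and -0.55 in young WT mice. With that trend fitted as an offset in each library, the Lgals1 difference was 1.04 in young mice and 2.33 in old mice.

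With age Lgals1 went different ways by value in the 2 genotypes. Old WT mice lay below young WT mice with no overlap, a log2 difference of -0.90 (SE 0.29), which was -0.34 without the old litter of batch 1 and -0.50 without its WT mouse alone. Old KO mice overlapped with young KO mice, and the log2 difference was 0.49 (SE 0.29). That value rested on single libraries, since it was 0.07 without the second old KO mouse, 0.16 without the first young KO mouse, 0.83 without the first old KO mouse and 0.87 without the second young KO mouse. The KO effect in old mice exceeded that in young mice by 1.39 (SE 0.41) on the log2 scale, with no test. As a share of the summed TPM of the 5 galectins, Lgals1 made up 15.8% and 17.5% in old KO mice, 3.15% and 3.80% in old WT mice, 10.5% and 15.5% in young KO mice and 5.54% and 6.83% in young WT mice.

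**Figure D2:**
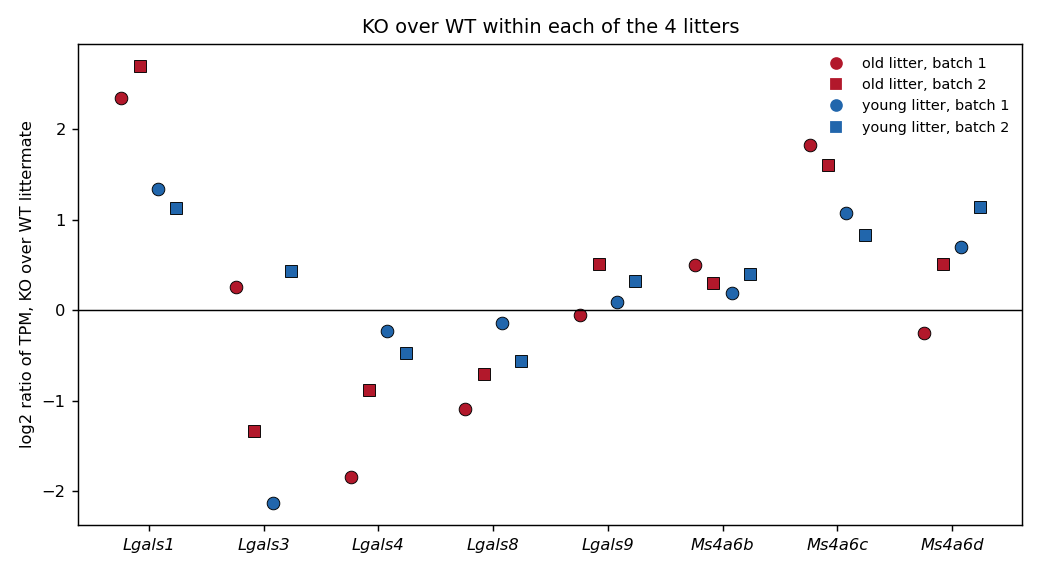
Log2 ratio of TPM in the KO mouse over its WT littermate (y axis) for each gene (x axis), with red points for the 2 old litters, blue points for the 2 young litters, circles for batch 1 and squares for batch 2. All 4 litters lie above 0 for Lgals1, Ms4a6b and Ms4a6c and below 0 for Lgals4 and Lgals8, while Lgals3, Lgals9 and Ms4a6d have litters on both sides.

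Lgals9, whose product binds the T cell surface protein TIM-3, changed little. Lgals9 stood at 658 and 708 TPM in old KO mice and at 681 and 495 TPM in old WT mice. The young KO mice had 589 and 664 TPM and the young WT mice 471 and 625 TPM. The groups overlapped at both ages, and the KO to WT ratio was 0.97 and 1.43 in the old litters and 1.06 and 1.25 in the young litters. Over both ages the log2 difference was 0.36 (SE 0.12), short of the threshold (adjusted p = 0.0657, edgeR), though DESeq2 called it (adjusted p = 0.0302, in a range of 0.0302 to 0.944 over 18 alternatives). Transcript Lgals9-202 held 94.0% to 95.8% of the gene's TPM in every library, so its levels are in effect those of 1 transcript.

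Lgals8, whose product marks damaged endosomes for removal by autophagy, ran lower in KO mice. In old mice the level was 56.2 and 84.6 TPM with KO and 119 and 138 TPM with WT. In young mice it was 109 and 90.5 TPM with KO and 160.4 and 99.6 TPM with WT. Old KO mice lay below old WT mice with no overlap, the young groups overlapped, and the KO library was the lower of each of the 4 litters. The log2 difference was -0.67 (SE 0.19, adjusted p = 0.0918, edgeR) in old mice and -0.45 (SE 0.14, adjusted p = 0.0592) over both ages, neither past the threshold. DESeq2 and limma on log2(TPM + 1) called Lgals8 lower in old KO mice (adjusted p = 0.00523 and 0.0383, in a range of 0.00523 to 0.503 over 16 alternatives). Both also called it lower over both ages (adjusted p = 0.0173 and 0.0407), as did edgeR in batch 2 alone (adjusted p = 0.0304). With the length trend as an offset the difference was -0.43 in old mice and -0.29 over both ages. Of its 10 transcripts, the protein-coding Lgals8-206 held 34.4% to 47.5% and Lgals8-201 21.9% to 26.4% of its TPM, and both were lower in the KO than in the WT mouse of each litter.

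Lgals4, a galectin best known from the gut epithelium, followed Lgals8 across libraries (Pearson r = 0.95 of log2(TPM + 1) over 8 libraries, which share their depth and length trend). Old KO libraries held 4.35 and 9.90 TPM and old WT libraries 15.6 and 18.2 TPM. Young KO libraries held 15.2 and 7.26 TPM and young WT libraries 21.2 and 8.49 TPM. Again the old groups did not overlap and the young groups did. The log2 difference was -1.24 (SE 0.30, adjusted p = 0.0691, edgeR) in old mice and -0.32 (SE 0.29, adjusted p = 0.737) in young mice. The difference between these 2 effects, tested as the interaction of genotype and age, was -0.92 (SE 0.42) with an unadjusted p of 0.048 and an adjusted p of 1. Over both ages the difference was -0.78 (SE 0.24, adjusted p = 0.0585). DESeq2 called Lgals4 in old mice (adjusted p = 0.000165) and over both ages (adjusted p = 0.00692), in ranges of 0.000165 to 0.461 and 0.00692 to 0.662 over the alternatives. Without the old litter of batch 1 the difference over both ages was -0.49. The protein-coding Lgals4-201 held only 40.7% to 78.6% of the TPM, and transcripts with retained introns held most of the rest.

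Lgals3 split the libraries as neutrophil marker RNA did, across genotypes and ages. Lgals3 was at 5.001 and 7.37 TPM in old KO mice and 4.18 and 18.5 TPM in old WT mice. Among the young, KO mice had 19.8 and 4.69 TPM and WT mice 14.6 and 20.5 TPM. The 4 libraries with more than 14 TPM were 1 old WT, 1 young KO and both young WT libraries, and the groups overlapped in every comparison. The summed TPM of 11 neutrophil markers, all of them detected, was 279.8 and 70.0 in old KO mice, 12.4 and 1095 in old WT mice, 1582 and 166 in young KO mice, and 669 and 952 in young WT mice. The same 4 libraries were highest for these markers, and the part of neutrophil RNA in the Lgals3 values was not tested. The log2 difference over both ages was -0.66 (SE 0.41, adjusted p = 0.315, edgeR), and no comparison passed. The second panel of the plot shows Lgals1. The 4 libraries with the most neutrophil marker RNA hold 26.5 to 85.9 TPM of Lgals1. The 3 libraries with the most Lgals1, 136 to 172 TPM, have 70.0 to 279.8 TPM of these markers. The library with the least marker RNA, 12.4 TPM, holds 26.7 TPM of Lgals1. The part of neutrophil RNA in the Lgals1 values was not tested.

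**Figure D3:**
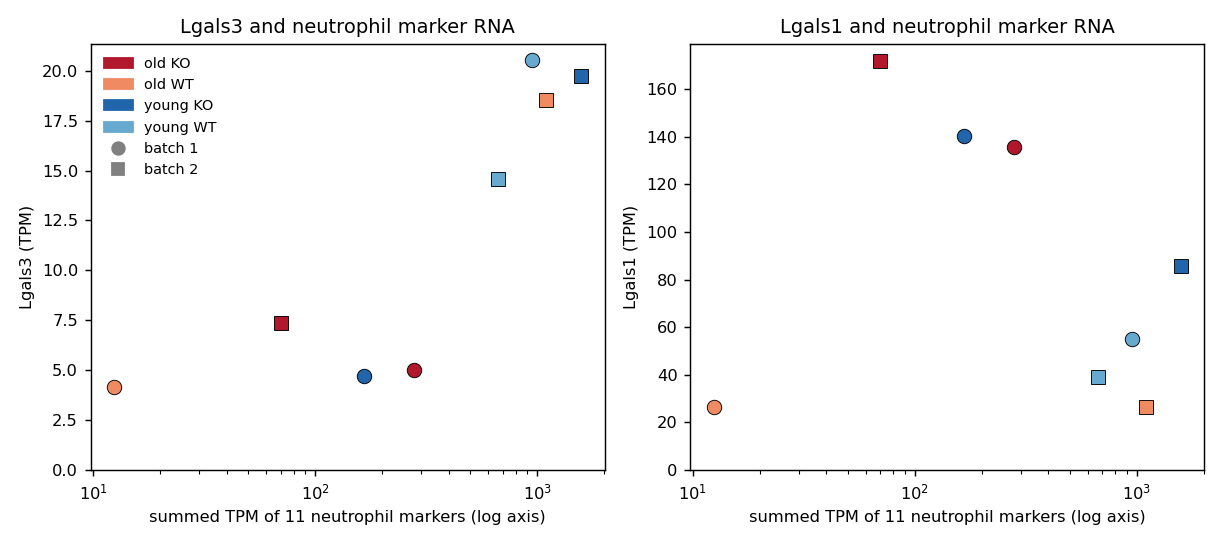
Level of Lgals3 (left) and Lgals1 (right) in TPM against the summed TPM of 11 neutrophil markers (x axes, log scale) in the 8 libraries, with colours for the groups, circles for batch 1 and squares for batch 2. The 4 libraries with the most marker RNA hold 14.6 to 20.5 TPM of Lgals3 and the other 4 hold 4.18 to 7.37 TPM.

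Ms4a6c was the Ms4a6 gene with the widest separation. Old KO mice had 49.96 and 68.0 TPM and old WT mice 14.1 and 22.4 TPM. Young KO mice had 27.6 and 26.7 TPM and young WT mice 15.5 and 12.7 TPM. The old KO mice lay above the young KO mice. Every KO library lay above every WT library, and as for Lgals1 the share of all genes that separate so was not counted. The KO to WT ratio was 3.54 and 3.03 in the old litters and 2.11 and 1.78 in the young litters. As a description, the log2 difference was 1.92 (SE 0.27) in old mice, and old KO against young KO gave 1.06 (SE 0.27), while old WT against young WT gave 0.17 (SE 0.27). The KO effect in old mice exceeded that in young mice by 0.89 (SE 0.38), with no test. In young mice the KO effect was 1.03 (SE 0.27, unadjusted p = 0.00253, adjusted p = 0.377, edgeR), with the same limits on the choice and the fit as for Lgals1. DESeq2 called it there (adjusted p = 0.00599), and edgeR did so without the filter (adjusted p = 0.0174) or without the second young WT mouse (1.19, adjusted p = 0.0407), in a range of 0.00599 to 0.838 over 16 alternatives.

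The reads behind Ms4a6c are shared in part with its antisense neighbour. Ms4a6c lies at chr19:11469366-11482192 on the plus strand (GRCm38), and BE692007, annotated as a processed transcript, lies at chr19:11470166-11484578 on the minus strand. Of the 1811 stretches of 31 bases in Ms4a6c-201, 1031 also occur in BE692007 read on either strand, and the labels name a library kit with no strand step, so the reads of the 2 genes cannot be told apart there. BE692007 took 10.7% to 16.0% of the summed count of both genes. The level assigned to BE692007 was 5.19 and 4.85 TPM in KO and 0.942 and 2.29 TPM in WT mice when old, and 3.24 and 2.36 TPM in KO and 0.831 and 0.869 TPM in WT mice when young. With reads shared in this way, these values are not a separate observation from those of Ms4a6c. With the counts of both genes summed, an alternative added after the data were seen, the log2 difference was 1.89 in old mice and 1.04 in young mice. Ms4a6c-202, a transcript with a retained intron, held 31.4% to 45.7% of the TPM, and both it and the protein-coding Ms4a6c-201 were higher in the KO mouse of every litter, as the plot of transcripts shows.

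**Figure D4:**
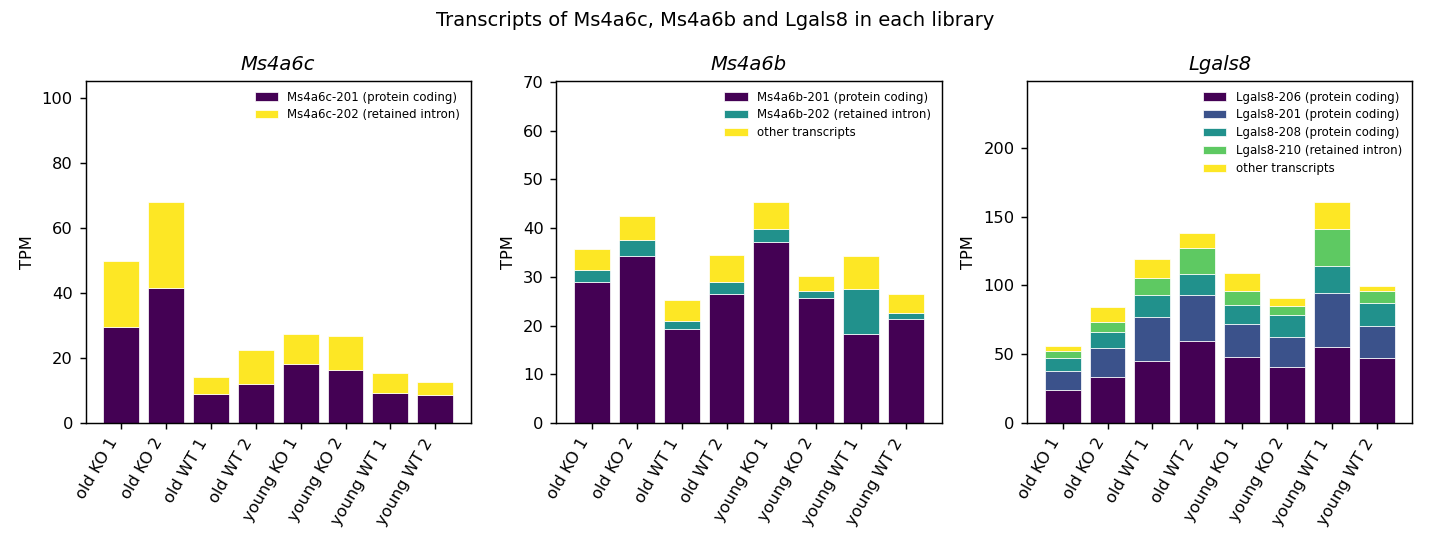
TPM of the transcripts of Ms4a6c, Ms4a6b and Lgals8 (stacked bars, y axes starting at 0) in each of the 8 libraries (x axes), with the annotated type of each transcript in the legend. Both Ms4a6c transcripts are higher in KO than in WT mice of the same age, and a retained-intron transcript takes 27.1% of Ms4a6b in the first young WT library.

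Ms4a6b moved in the same direction by less. Ms4a6b RNA was 35.6 and 42.6 TPM in old KO and 25.3 and 34.6 TPM in old WT mice. For young mice the values were 45.3 and 30.2 TPM with KO and 34.4 and 26.5 TPM with WT. The old groups did not overlap but the young groups did, and the KO to WT ratio was 1.41 and 1.23 in the old litters and 1.14 and 1.32 in the young litters. Over both ages Ms4a6b rose in KO mice by a log2 difference of 0.55 (SE 0.16, adjusted p = 0.0488, edgeR), at the edge of the threshold. The call ended with litter as a block (0.56, adjusted p = 0.0795), with limma on log2(TPM + 1) (0.34, adjusted p = 0.0771), without the old litter of batch 1 (0.50, adjusted p = 0.215), in either batch alone (0.55 in batch 1 and 0.46 in batch 2, adjusted p = 0.809 and 0.157), and without any 1 of 6 libraries, both old KO, both old WT, the first young KO and the first young WT (0.44 to 0.64, adjusted p = 0.0882 to 0.153). Ms4a6b-201 shares 20% of its 31-base stretches with other transcripts, mostly those of Ms4a6c, so part of the Ms4a6b signal rests on how reads were divided between the 2 genes.

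Ms4a6d, known in mouse macrophages, was low throughout. Old KO mice had 1.22 and 2.36 TPM and old WT mice 1.45 and 1.66 TPM. Young KO mice had 1.61 and 1.56 TPM and young WT mice 0.729 and 0.961 TPM. The young groups did not overlap and the old groups did. The log2 difference was 0.59 (SE 0.55, adjusted p = 0.738, edgeR) in young mice and 0.50 (SE 0.36, adjusted p = 0.369) over both ages. Within the summed TPM of the 3 Ms4a6 genes, Ms4a6c made up 57.6% and 60.2% in old KO mice, 34.6% and 38.2% in old WT mice, 37.0% and 45.7% in young KO mice, and 30.6% and 31.6% in young WT mice, and Ms4a6b held most of the remainder. Old KO mice were thus the only group in which Ms4a6c exceeded Ms4a6b.

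The promoters of Ms4a6b and Ms4a6c are shown because the 2 genes are relatives in the same cluster that differed in the size of their KO to WT ratio. Each is the 250 bases before the RefSeq start on GRCm38.p6, plus strand, at chr19:11518309-11518558 for Ms4a6b and chr19:11469118-11469367 for Ms4a6c, 5′ to 3′, with capitals for the longest run of bases that is identical in both.
Ms4a6b: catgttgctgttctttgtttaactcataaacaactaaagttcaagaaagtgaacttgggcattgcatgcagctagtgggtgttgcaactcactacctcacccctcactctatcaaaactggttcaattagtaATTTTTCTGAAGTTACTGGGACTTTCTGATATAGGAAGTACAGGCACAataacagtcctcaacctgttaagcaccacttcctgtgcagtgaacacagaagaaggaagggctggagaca
Ms4a6c: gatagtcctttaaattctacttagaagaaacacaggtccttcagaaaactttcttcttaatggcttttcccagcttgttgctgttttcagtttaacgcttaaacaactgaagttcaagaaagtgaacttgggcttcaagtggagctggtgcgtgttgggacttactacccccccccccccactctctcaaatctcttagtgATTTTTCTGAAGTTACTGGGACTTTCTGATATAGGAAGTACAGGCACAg
The best local alignment paired 172 bases, of which 148 (86%) were identical. The capital run is 48 bases long and ends 71 bases before the start of Ms4a6b but 2 bases before the start of Ms4a6c. The RefSeq start of Ms4a6b lies 2047 bases downstream of the first base of the gene in the GENCODE annotation, and that of Ms4a6c 2 bases downstream. RefSeq promoters were matched for 6 of the 8 genes, all but Lgals1 and Ms4a6d. The letters GAGGAA (a form of the PU.1 site), TGTGGT (RUNX), GAAA followed after 2 bases by another GAAA (interferon-response-like) and TTCNNNGAA (STAT-type GAS) were searched on both strands. So were TTGCNNAA (C/EBP-like) and TATAAA, and no 2 matches overlapped. None of these exact letters occurs in the Ms4a6b or Ms4a6c window, and shorter or other forms of the sites were not searched. The Lgals9 window, shown as that of the most abundant gene of the set, lies at chr11:78984925-78985174 on the minus strand, with matches in capitals.
Lgals9: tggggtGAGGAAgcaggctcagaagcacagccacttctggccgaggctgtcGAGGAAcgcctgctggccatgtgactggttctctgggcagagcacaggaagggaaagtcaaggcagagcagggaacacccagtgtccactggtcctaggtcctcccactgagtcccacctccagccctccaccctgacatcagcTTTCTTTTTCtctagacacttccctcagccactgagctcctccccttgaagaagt
It holds GAGGAA at 2 places and the interferon-response-like motif on the opposite strand. GAGGAA is found in 23.3% and the interferon-response-like motif in 2.98% of 32851 RefSeq windows of that length. The Lgals4 window holds GAGGAA and the Lgals8 window holds TGTGGT, which is found in 14% of windows.

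Other genes of the Ms4a cluster were followed because Ms4a6c and Ms4a6b lie among them, as the plot of the cluster shows. In young mice 10 of the 16 cluster genes had a fitted log2 difference above 0, where 52.7% of all genes did. In old mice 13 of the 15 genes other than Ms4a6c did, where 53% of all genes did. None of these passed the threshold at either age. The 15 genes counted in old mice include BE692007 and Ms4a6b, which share 31-base stretches with Ms4a6c. That count is thus not free of the values by which Ms4a6c was picked, and nothing is read from it. Over both ages Ms4a4b, which lies beside Ms4a6c and encodes a related protein known from T cells, rose in KO mice (log2 difference 1.19, SE 0.23, adjusted p = 0.0181, edgeR). Its levels were 9.70 and 14.4 TPM in KO and 4.11 and 6.93 TPM in WT mice when old, and 7.45 and 5.94 TPM in KO and 3.29 and 3.19 TPM in WT mice when young, with no overlap at either age. Ms4a4b shares 8.01% of its 31-base stretches with other transcripts, mostly Ms4a4c. Ms4a2, a mast cell and basophil gene at the far side of the cluster, fell (-1.21, SE 0.31, adjusted p = 0.0365). Among the 13 tested genes of the list of other Ms4a genes and relatives these were the 2 calls, where 9.98% of all genes were called. The median log2 difference of the list was 0.49, beside 0.10 for all genes. Ms4a3, a granulocyte-monocyte progenitor gene, had 51.9 TPM on average and a log2 difference of 1.51 in old and -1.09 in young mice, neither past the threshold (adjusted p = 0.131 and 0.536).

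**Figure D5:**
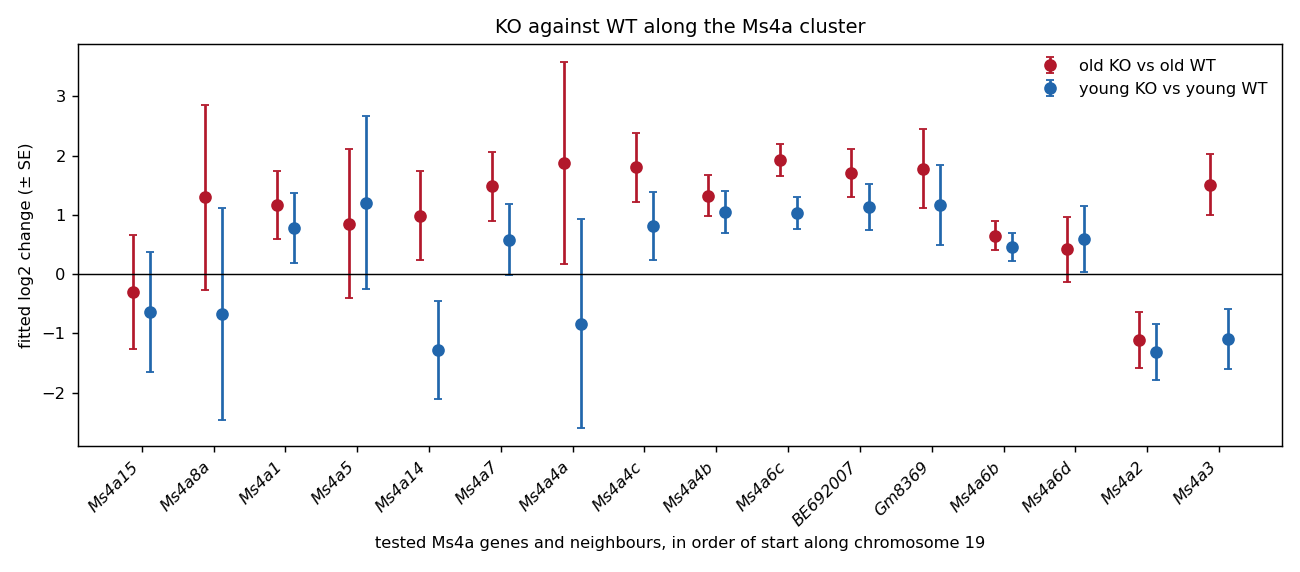
Fitted log2 change, KO against WT, with its SE (y axis) for the tested Ms4a genes and neighbours in their order along chromosome 19 (x axis), red for old and blue for young mice. Values from Ms4a4c to Ms4a6d lie above 0 at both ages, and Ms4a2 lies below 0 at both.

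Counted by comparison, few of the 8 genes passed the test. In young mice none of 8 passed, against 0.0626% of all genes (16 of 25543, or 3 with litter as a block). An unadjusted p under 0.05 was found for 2 of the 8, where 2416 of 25543 genes had one. DESeq2 called those 2, Lgals1 and Ms4a6c, where it called 2.76% of the genes it gave an adjusted p, and limma called none of all genes. In old mice none of the 6 tested genes passed, against 0.65% of all genes (166, or 12 with litter as a block). An unadjusted p under 0.05 was found for 4 of them, where 5405 of 25543 genes had one. DESeq2 called 3 of these 6, Lgals4, Lgals8 and Ms4a6b, where it called 17.4% of genes, and limma called Lgals8, where it called 6.08%. Over both ages 1 of 6 passed, Ms4a6b, against 9.98% of all genes (2548, or 1162 with litter as a block), and 3.19% of all genes were called higher. DESeq2 called 4 of 6, Lgals4, Lgals8, Lgals9 and Ms4a6b, where it called 24.5% of genes, and limma called Lgals8, where it called 8.83%. Of all calls over both ages 32.0% were higher in KO mice, and 52.1% with the length trend as an offset. With age none of 6 passed in WT mice or in KO mice, against 0.0861% of all genes in each. The unadjusted p was under 0.05 for 0 and 2 of the 6, where it was for 3543 and 6224 of 25543 genes. DESeq2 called none in WT mice, where it called 1.65% of genes, and Lgals4 and Lgals8 in KO mice, where it called 17.6%. Limma called no member in either, where it called 0.00783% of genes in WT mice and 0.0157% in KO mice. The interaction of genotype and age called none of 6, against 0.00391% of all genes. Lgals4 alone of the 6 had an unadjusted p under 0.05, where 505 of 25543 genes did. DESeq2 and limma called none of the 6, where they called 0.0274% and 0% of all genes.

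Groups that do not overlap are common with 2 mice each. In young mice Lgals1, Ms4a6c and Ms4a6d lay higher in both KO mice than in both WT mice, where 13.9% of all genes did, and no member lay lower, where 19.3% did. In old mice Lgals1, Ms4a6b and Ms4a6c lay higher, where 23.5% of genes did, and Lgals4 and Lgals8 lay lower, where 32.4% did. Old WT mice lay above young WT mice for Ms4a6d, where 25.3% of genes did, and below them for Lgals1, where 11.2% did. Old KO mice lay above young KO mice for Ms4a6c, where 32.8% of genes did, and below them for Lgals8, where 25.2% did. The KO mouse was the higher of all 4 litters for Lgals1, Ms4a6b and Ms4a6c, against 12.3% of genes, and the lower of all 4 for Lgals4 and Lgals8, against 24.2%. Lgals1 and Ms4a6c were chosen by their old libraries, so nothing is read from their place in these counts other than in young mice.

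Enzymes that build the sugars galectins bind were read as a list. Of 18 tested glycan-branching and ligand enzymes, 4 fell in KO mice over both ages and none rose, where 6.78% of all genes were called lower, and the median log2 difference was -0.46, beside 0.10 for all genes. Those 4 were St3gal6, a sialyltransferase (-0.99, SE 0.19, adjusted p = 0.0181, edgeR), Gcnt2, which branches poly-lactosamine chains (-0.97, SE 0.19, adjusted p = 0.0179), Man1a, a mannosidase of N-glycan trimming (-0.67, SE 0.16, adjusted p = 0.0327), and Mgat1, which starts complex N-glycans (-0.59, SE 0.13, adjusted p = 0.0243). Gcnt2 also fell in old KO mice (-1.38, SE 0.22, adjusted p = 0.0219), a call that ended with litter as a block. These counts moved with the length trend described for Lgals1. With that trend as an offset 609 of all genes were called lower over both ages, against 1732 without it, and 1 of the 18 enzymes was called lower, St3gal6 (-0.98, adjusted p = 0.0120), and 1 higher, Mgat5, which branches N-glycans (0.71, adjusted p = 0.0190), with a median of -0.11, beside 0.13 for all genes. Without the old litter of batch 1 none of the 18 was called over both ages. In young mice none of the 18 passed, with a median of -0.38, beside 0.04 for all genes.

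Of 11 glycoproteins known to bind galectins, Itgb1, the integrin beta1 chain (-0.55, adjusted p = 0.0338, edgeR), and Itgam, the integrin alphaM chain (-0.68, adjusted p = 0.0390), fell over both ages and none rose, where 6.78% of all genes were called lower. Among 10 partners of galectins in the response to damaged membranes, Optn (-0.82, adjusted p = 0.0234) and Tbk1 (-0.60, adjusted p = 0.0248), an autophagy receptor and its kinase, fell with Pdcd6ip (-0.48, adjusted p = 0.0449), which encodes the repair factor ALIX, and none rose. The medians of the 2 lists were -0.26 and -0.35, beside 0.10 for all genes. With the length offset the calls were Havcr2, which encodes TIM-3, higher (1.11, adjusted p = 0.0313) in the first list and Optn lower (-0.54, adjusted p = 0.0448) in the second, and without the old litter of batch 1 neither list had a call. With litter as a block none of the 11 glycoproteins and 2 of the 10 partners were called lower, where 784 of 25543 genes were. Neither list had a member past the threshold in old or in young mice taken alone.

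Markers of cells known for galectin and Ms4a6 RNA were read beside these genes. Of 20 monocyte and macrophage markers, Cd68, a lysosomal glycoprotein of macrophages, rose over both ages (log2 difference 1.67, SE 0.16, adjusted p = 0.000663, edgeR), as did the chemokine receptor gene Ccr2 (1.08, SE 0.20, adjusted p = 0.0161), while Itgam fell. In that comparison 3.19% of all genes were called higher and 6.78% lower. Cd68 had 100.4 and 83.9 TPM in KO and 32.5 and 32.0 TPM in WT mice when old, and 89.0 and 78.2 TPM in KO and 27.3 and 31 TPM in WT mice when young. As with Lgals1 and Ms4a6c, no KO library overlapped with a WT library, a split whose share among all genes was not counted. The 20 markers together had a median log2 difference of 0.45 in old mice, beside 0.07 for all genes, with Cd68 as the only call, and of -0.18 in young mice, beside 0.04, with no call. With the length trend as an offset Ccr2 (1.74, adjusted p = 0.0467, edgeR) joined Cd68 in old mice, and Cd68 was called in young mice (1.34, adjusted p = 0.0331). The old groups overlapped for Ccr2, with 18.89 and 81.35 TPM in KO and 18.14 and 21.11 TPM in WT mice. Its rise in old mice thus rested mostly on the second old KO mouse. With that offset the fall of Itgam over both ages was not called (-0.22, adjusted p = 0.275), and the median of the 20 over both ages was -0.001, beside 0.13. Without the old litter of batch 1 the median in old mice was 0.16, beside 0.21 for all genes. Their summed level overlapped between the genotypes at both ages, with 736 and 783 TPM in KO and 634 and 998 TPM in WT mice when old, and 1106 and 709.8 TPM in KO and 720.2 and 985 TPM in WT mice when young. Most of that sum was Lyz2, a lysozyme gene that neutrophils also express, with 448 to 820.2 TPM. Among the defining markers none was at 0 in all libraries, and 4 of the 20 were below 1 TPM in every library, Fcgr1, Adgre1 and Mrc1 among them, while Csf1r averaged 4.77 TPM, Ccr2 29.8 TPM, Ctss 53.9 TPM and Ly6c2 56.2 TPM. Markers of granulocyte-monocyte progenitors were higher in old KO mice by their median and sum, but not each of them. Mpo, Prtn3, Ctsg and Irf8 lay higher in both old KO mice than in both old WT mice. Csf3r lay lower, with 68.2 and 91.5 TPM against 120 and 130 TPM. Elane, Ms4a3, Cebpa, Cebpe and Fcgr3 overlapped. The 10 markers had a median log2 difference of 0.94 in old mice, beside 0.07 for all genes, and Ctsg, the gene of the granule protease cathepsin G, rose (2.06, SE 0.30, adjusted p = 0.0192, edgeR). Over both ages Irf8, a transcription factor gene of monocyte and dendritic cell development, rose (0.76, SE 0.15, adjusted p = 0.0187), where the median of the 10 was 0.15. With the length trend as an offset 3 of the 10 were called higher in old mice, Ctsg, Irf8 and Cebpa, where 132 of 25543 genes were. The median was then 0.92, beside 0.14 for all genes. Without the old litter of batch 1 the median in old mice was 0.87, beside 0.21 for all genes, and none of the 10 was called there. Their summed level was 2840 and 3848 TPM in old KO mice and 1741 and 2550 TPM in old WT mice. For young mice the sum was 1969 and 1989 TPM with KO and 2958 and 3937 TPM with WT. It was thus higher in KO than in WT mice when old and lower when young. Mpo was the largest part of it, with 815 to 2163 TPM. In young mice the median was -0.51, and Lgals1 and Ms4a6c were higher in KO than in WT mice at both ages. The part of monocytes, macrophages or progenitors in the Lgals1 and Ms4a6c values was not tested.

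The genes most like Lgals1 and Ms4a6c across the 8 libraries were looked up among 9553 genes with a mean of at least 5 TPM, by Pearson r of log2(TPM + 1). For Lgals1 they were Lmo1, Tbc1d7, Hnrnpa1, Hist1h4i and Hist1h2bj, with r from 0.95 to 0.92. For Ms4a6c they were Mrps18b, Lsm8, Snrpe, Snrpd1 and Mrpl35, which encode mitochondrial ribosome and RNA-processing proteins, with r from 0.99 to 0.98. Their spread was narrower than that of Ms4a6c: Mrps18b had 127.7 and 137 TPM in old KO mice and 98.3 and 107 TPM in old WT mice. Lgals1 and Ms4a6c themselves had an r of 0.79, Ms4a6b and Ms4a6c 0.70, and Lgals1 and Lgals8 -0.78. These are descriptions over 8 libraries that share groups, batches and the length trend.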

How the data were processed

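RNA from 8 mice was prepared with the SMART-Seq v4 kit, per the labels' protocols, and the submitters' processing notes name kallisto, mm10 and DESeq2, without versions. The deposited tables give, per the file headers, kallisto's estimated counts, TPM and effective length in bases for 115088 transcripts, as the authors made them. The 114200 transcripts found in the GENCODE vM21 annotation were summed into 47311 genes, and 888 others, with 0.259% to 0.470% of a library's estimated counts, were not used. Lengths in the annotation and in the deposited tables were equal for 94.2% of the matched ones. The members, gene lists and tests were chosen with earlier results of these data known.

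Summed counts were rounded, filtered with filterByExpr (minimum count 10, minimum total 15; 25543 genes), scaled by TMM and tested in R 4.3.3 with the quasi-likelihood F test of edgeR 4.0.16, with the Benjamini-Hochberg adjustment taken across all 25543 genes and a threshold of 0.05. Comparisons within an age or genotype and the interaction came from a fit of group (4 levels) plus batch, with 3 residual degrees of freedom. KO against WT over both ages came from additive terms for genotype, age and batch, with 4. A positive log2 difference means higher in KO, or higher in old mice. Alternatives were DESeq2 1.42.0, RLE size factors, no filter, limma 3.58.1 on log2(TPM + 1), a transcript length offset (lowess, span 0.3), the old litter of batch 1 left out, litter as a block, each batch alone, each library left out in turn and Ms4a6c with BE692007 counts summed. Tables were made in Python 3.11.15 with numpy 2.4.6 and pandas 2.3.3, and plots with matplotlib 3.10.9.

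Replicates are numbered in accession order, and the labels pair each KO with a WT littermate. Across genes the deviations of littermates from their group means correlated by 0.081 in old and 0.26 in young mice, where 2 mice a group give 1 value an age. Genes named are the 8 members, Asxl2, the 5 most like Lgals1 and Ms4a6c, and in each list up to 4 called genes with the largest change and a mean of at least 2 TPM. Calls among LSK markers are named in part, and calls among erythroid, mast cell, megakaryocyte and stroma markers are given as counts or left out. Markers, neighbours and the other genes named were added after their values were seen. Promoter sequences are from RefSeq on GRCm38.p6.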

Additional observations from a re-analysis of the deposited data

How the results depend on the processing

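With 2 mice a group and 3 or 4 residual degrees of freedom, the number of genes called moved with most choices. Under DESeq2, no filter, limma and without the old litter of batch 1, the count was 391, 421, 0 and 38 in young mice (16 as reported), 3238, 2517, 1553 and 59 in old mice (166), 373, 1015, 2 and 42 for old against young WT (22), 3371, 2943, 4 and 35 for old against young KO (22), and 7, 75, 0 and 9 for the interaction (1). Over both ages (2548) DESeq2, no filter and leaving out that litter gave 5288, 4237 and 263. The length offset gave 250 in old mice, 1272 over both ages, 7 for old against young WT and 0 for the interaction, and it moved the median of all genes to 0.21 for old against young WT and 0.30 for old against young KO, beside 0.06 and 0.18 as reported. With litter as a block the counts were 3, 12 and 1162 for young, old and both. Batch 1 alone gave 221 and batch 2 alone 6787 over both ages. Leaving out 1 library gave 0 to 1271 in young mice, 6 to 3709 in old mice, 83 to 4930 over both ages, 19 to 1523 for old against young WT, 7 to 3745 for old against young KO and 0 to 27 for the interaction. Litter as a block ended the only call of a member as reported, Ms4a6b over both ages, and it was not run for old against young mice.

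Lgals1 and Ms4a6c kept their direction under each alternative in every comparison of KO with WT. Without 1 library edgeR also called Lgals4 in old mice (either young KO mouse or either young WT mouse left out, adjusted p = 0.0111 to 0.0479) and over both ages (second young KO or second young WT, 0.0464 and 0.0191), Lgals8 in old mice (either young WT, 0.0110 and 0.0337), over both ages (second young KO or second young WT, 0.0211 and 0.0301) and for old against young KO (first young WT, 0.0332), and Lgals9 over both ages (second young WT, 0.0310). Without the filter it called Lgals4 and Lgals8 in old mice (0.0131 and 0.0309) and over both ages (0.0270 and 0.0421).

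Differences that changed sign were some of Lgals3, that of Ms4a6d in old mice (0.42 as reported) and others of -0.17 to 0.19 as reported. For old against young WT, Lgals9 (-0.01 as reported) was 0.0075 with DESeq2, 0.0075 with RLE factors, 0.0059 with no filter, 0.10 with limma, 0.090 with the length offset and 0.18 without the old litter of batch 1. Lgals8 there was 0.021, 0.10 and 0.15 with limma, the length offset and without that litter, and Ms4a6b 0.042 and 0.21 with the last 2 of these. Leaving out 1 library there gave -0.10 to 0.16 for Lgals9, -0.24 to 0.11 for Lgals8, -0.38 to 0.23 for Ms4a6b, -0.23 to 0.56 for Ms4a6c, -2.12 to 0.13 for Lgals3 and -0.034 to 0.33 for Lgals4. The same range was -1.80 to 0.37 for Lgals3 in young mice, -1.21 to 0.65 for Lgals3 and -0.019 to 0.85 for Ms4a6d in old mice. For old against young KO it was -0.023 to 0.22 for Ms4a6b, -0.13 to 0.35 for Lgals9 and -1.22 to 0.063 for Lgals3. For the interaction it was -0.14 to 0.46 for Ms4a6b, -0.62 to 1.40 for Lgals3, -0.67 to 0.25 for Ms4a6d and -0.22 to 0.23 for Lgals9, and without that litter Ms4a6b gave -0.17 and Lgals3 -0.61. The cause of these shifts was not tested.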
